A study of Homo sapiens with 9 samples.

Results

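The proteasome genes described here were sought among the array features that carry exactly 1 gene symbol, by the symbols of the proteasome subunits (PSM followed by a letter from A to G and a number), ADRM1 and POMP. The rule found 2 genes, ADRM1 and POMP, each with 1 feature, of 14884 genes tested, and left out PSMC3IP, whose product is not a subunit. Of the 50 protein-coding RefSeq symbols that fit the same pattern, the other 48 were not analysed here. The results below therefore describe 1 receptor subunit and 1 assembly factor of the proteasome, and say nothing of the complex as a whole. The rule uses gene names and no measured value.

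The 9 RNA samples came from BT-549, an established human line of triple-negative breast cancer, a tumour class without hormone receptors or HER2 amplification. Each of the 3 treatment groups had 3 arrays. The mock group received the lipid Lipofectamine RNAiMAX without RNA, the negative control group the lipid with 50 nM of a non-specific small RNA, and the mimic group the lipid with 50 nM of mature miR-150-5p. All groups had their medium replaced at 24 h and gave RNA at 72 h, so every group, mock included, was exposed to the lipid. Whether a group's 3 samples were independent cultures is not stated in the labels, so the p-values rest on a spread between samples that may be technical. A single line was used, and each value comes from RNA of a whole culture.

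The proteasome is the protease complex that degrades proteins tagged with chains of ubiquitin. A barrel-shaped core holds the catalytic sites, and a regulatory particle at its ends binds the tagged protein, removes the ubiquitin and unfolds the chain. ADRM1, also called Rpn13, is a receptor in the regulatory particle that binds ubiquitin chains and anchors the deubiquitinating enzyme UCHL5. POMP is a chaperone that joins the core while it is built, helps its rings to pair and is itself the first substrate of the finished core. Proteasome genes are transcribed under the control of NFE2L1, a factor held in the endoplasmic reticulum that is released when the proteasome is overloaded.

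The values are log2 signals after RMA, the authors' background correction, normalization and summary of probes, and the median over all features was 2.43 to 2.48 on the 9 arrays. Arrays of a group correlated at 0.981 to 0.989 and arrays of different groups at 0.977 to 0.986 (Pearson's r over features, which do not count as replicates). The labelled cell line was checked against markers: VIM, FN1, CD44 and AXL, of mesenchymal-like breast lines, read from 7.02 to 9.48 on all arrays. The receptor genes ESR1 and PGR and the epithelial EPCAM read from 1.64 to 2.37, below the array medians. GATA3 (5.04 to 6.11) and KRT18 (7.31 to 7.75), listed as luminal markers, read above them. LYZ, PECAM1, ALB and APOA1, of other tissues, read from 1.58 to 2.90, and the other markers of these lists were not analysed here. Among them APOA1 (2.46 to 2.90) lay above the median of every array, and PECAM1 reached 2.80 on negative control 1.

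ADRM1 (gene ID 11047, feature 16915656) lies on chromosome 20 from 62302896 to 62308862, and POMP (gene ID 51371, feature 16773583) on chromosome 13 from 28659130 to 28678959, in RefSeq's GRCh38.p14. RefSeq's table also lists a pseudogene of POMP, POMPP1, and the sources used here do not say whether the feature's probes also match it. The 250 bases before each start site are shown because NFE2L1, described with the pathway genes below, binds the antioxidant response element, whose core was searched as TGACNNNGC. The CCAAT box, the site of the factor NF-Y, was searched too. Both were sought on both strands, and their matches, which do not overlap, are in capitals. The sequences are RefSeq's, GRCh38.p14, plus strand, 5′ to 3′, at chr20:62302646-62302895 and chr13:28658880-28659129.
ADRM1: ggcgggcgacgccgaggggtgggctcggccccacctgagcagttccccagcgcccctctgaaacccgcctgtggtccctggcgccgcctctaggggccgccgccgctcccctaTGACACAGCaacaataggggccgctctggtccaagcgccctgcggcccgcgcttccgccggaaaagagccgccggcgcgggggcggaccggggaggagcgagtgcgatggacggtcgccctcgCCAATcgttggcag
POMP: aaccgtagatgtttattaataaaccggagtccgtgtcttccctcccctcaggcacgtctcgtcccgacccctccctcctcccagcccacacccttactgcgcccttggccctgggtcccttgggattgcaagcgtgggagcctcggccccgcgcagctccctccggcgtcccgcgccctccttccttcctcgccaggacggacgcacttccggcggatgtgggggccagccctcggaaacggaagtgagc
ADRM1 had 1 match to the response element core, TGACACAGC, which begins 137 bases before the gene's start site, and 1 CCAAT box, which begins 14 bases before it. ADRM1 has a second listed promoter, not shown, before whose start the same matches begin at 238 and 115 bases. In POMP neither motif was found in the window that runs from 250 bases before to 50 after the start. Of all 35116 promoters of that length in the table, 13.3% held the response element core and 34.6% the CCAAT box. GC made up 74.0% of the bases shown for ADRM1 and 66.4% of those for POMP. A match says only that these letters are present.

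ADRM1, the ubiquitin receptor, showed no called difference between any of the groups. It read 5.98, 5.82 and 6.01 on mock arrays 1 to 3, then 5.69, 6.18 and 6.01 on the negative control arrays, and 6.17, 6.14 and 6.09 on mimic arrays 1 to 3. All 3 mimic arrays lay above all 3 mock arrays, by a gap smaller than the spread within mock, while the negative control arrays spanned both. The group means were 6.13 ± 0.042 (SD, n = 3) in the mimic, 5.96 ± 0.25 (SD, n = 3) in the negative control and 5.94 ± 0.10 (SD, n = 3) in mock. No neighbours in this order differed beyond their spread. The negative control group was the widest of the 3, and its lowest and highest arrays were also the lowest and highest of all 9.

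POMP, the assembly factor, also showed no called difference, and its means ran the other way. It read 7.95, 8.02 and 7.74 on mock arrays 1 to 3, then 7.61, 8.19 and 7.74 on the negative control arrays, and 7.74, 7.50 and 7.68 on mimic arrays 1 to 3. The groups overlapped, since the highest mimic array equalled the lowest mock array to 2 decimals. The means were 7.90 ± 0.15 (SD, n = 3) in mock, 7.84 ± 0.30 (SD, n = 3) in the negative control and 7.64 ± 0.13 (SD, n = 3) in the mimic, and here too no neighbours in the order differed beyond their spread. Since RNA came from whole cultures, fewer cells with the transcript and less of it per cell cannot be told apart, for POMP as for ADRM1. The signals of ADRM1 and POMP come from different probes, so their levels cannot be set against each other.

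**Figure D1:**
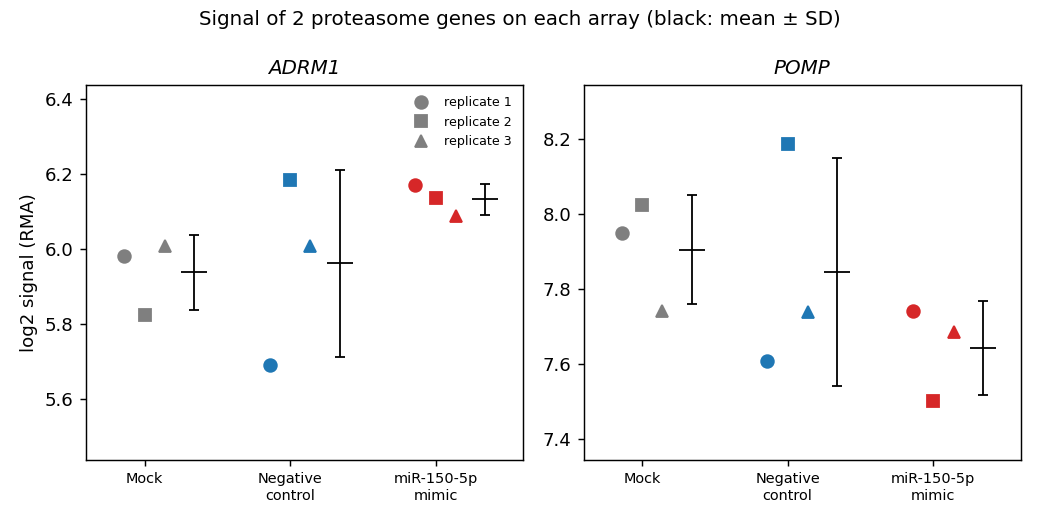
Log2 signal (RMA, vertical axis, spanning 1 log2 unit in each panel and not starting at 0) of ADRM1 and POMP on each of the 9 arrays, by treatment group; symbols mark the replicate number, and black bars the group mean ± SD, n = 3. The mimic arrays of ADRM1 lie between 6.09 and 6.17, above the mock arrays and within the range of the negative control, and for both genes negative control 2 is the highest of all arrays.

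The mimic and the negative control groups both received a small RNA, so their comparison sets the miR-150-5p sequence against that of the control RNA. Effects of either sequence cannot be told apart in it. ADRM1 was higher in the mimic by 0.17 ± 0.12 (log2 ± SE, limma, n = 3 per group, 1.13-fold), with a 95% interval from -0.10 to 0.44 and adjusted p = 0.56. POMP differed by -0.20 ± 0.15 (1.15-fold lower), with an interval from -0.54 to 0.13 and adjusted p = 0.58. Of the 2 genes 0 were called by limma, and 0 had an unadjusted p under 0.05 (0.19 for ADRM1, 0.21 for POMP). A gene was called at an adjusted p under 0.05, as were 3.18% of all genes tested. Both genes' groups overlapped, as they did for all but 18.6% of genes. The intervals leave room for a rise of ADRM1 of up to 1.36-fold and a fall of POMP of up to 1.45-fold.

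Which negative control arrays entered moved these values. For ADRM1 the difference was 0.28 without negative control 2 and 0.036 without negative control 1. For POMP it was -0.03 without negative control 2 and -0.32 without negative control 1. A second quantile normalization of the deposited values gave 0.077 for ADRM1, against 0.17, and -0.28 for POMP, and array weights gave -0.13 for POMP, against -0.20. Neither gene passed in any of these settings.

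Against mock, the mimic group differs both by its sequence and by having received RNA at all. ADRM1 was higher in the mimic by 0.19 ± 0.12 (1.14-fold), with a 95% interval from -0.077 to 0.47 and adjusted p = 0.47 (limma, n = 3 per group). POMP differed by -0.26 ± 0.15 (1.20-fold lower), with an interval from -0.60 to 0.073 and adjusted p = 0.42. Again 0 of the 2 genes were called (unadjusted p = 0.14 and 0.11), against 3.9% of all genes tested. The separation of the ADRM1 arrays, 1 of the 2 genes, stands beside 20.2% of all genes whose mimic and mock arrays did not overlap. The upper bound for ADRM1 is a rise of 1.38-fold, and the lower bound for POMP a fall of 1.51-fold. The second quantile normalization took ADRM1 to 0.10. The comparison shares its mimic arrays with the one before, so the like signs are not independent.

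The comparison of the negative control with mock shows the response to this 1 control RNA. Effects of its own sequence and of receiving any RNA cannot be told apart. ADRM1 differed by 0.02 ± 0.12, with a 95% interval from -0.25 to 0.30, and POMP by -0.06 ± 0.15, with an interval from -0.39 to 0.27 (limma, n = 3 per group, adjusted p = 0.97 and 0.93). Neither was called (unadjusted p = 0.85 and 0.70), against 0.645% of all genes tested, and neither gene's arrays separated, against 12% of genes. With the replicate number as a block, since same-numbered mock and negative control arrays deviated together, 61 genes were called in place of 96, and 0 when the block was fitted on these 6 arrays alone (1735 at an unadjusted p under 0.05), with ADRM1 and POMP not called in either. The signs of these small differences were not stable: ADRM1 was at -0.09 without negative control 2 and -0.03 without mock 2, and POMP at 0.06 without negative control 1.

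**Figure D2:**
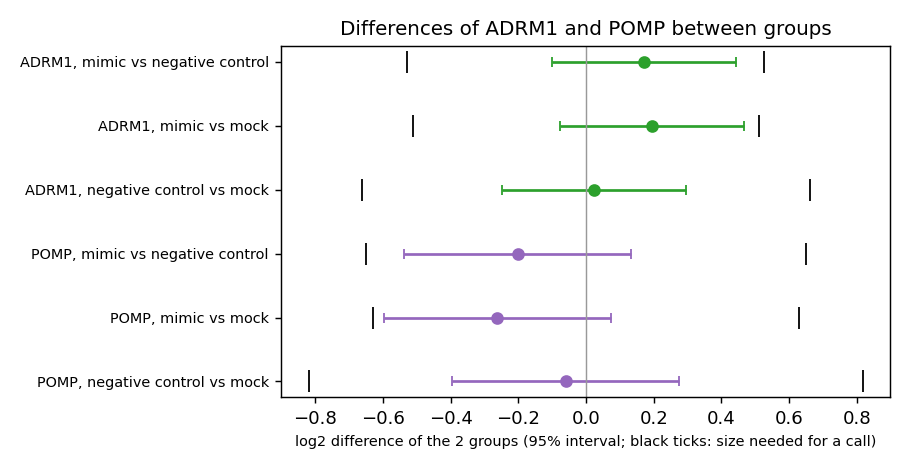
Difference of ADRM1 and POMP in each comparison (horizontal axis, log2, first group minus second) with its 95% interval from limma; black ticks mark the difference that would have been called with that gene's SE, at the highest p called in that comparison. All 6 intervals include 0, and the estimates run from -0.26 to 0.19.

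The precision of these values was near that of other genes for ADRM1 and lower for POMP. The SD within groups was 0.16 for ADRM1, at percentile 56.1 of all genes tested, and 0.21 for POMP, at percentile 78.0, beside a median of 0.15. With its SE, ADRM1 would have been called against the negative control at a difference of 0.53 or more and against mock at 0.51 or more. For POMP these sizes were 0.65 and 0.63. These sizes apply to the measured difference and are not the smallest true difference that could be detected. A smaller true difference could well have been missed with 3 arrays per group.

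The highest POMP arrays of the mock and negative control groups were those with the most signal from small nucleolar and Cajal body RNAs, a class that varied between arrays within groups. The mean log2 signal of that class was 5.62, 6.78 and 5.64 for the mock arrays in order of replicate number, 5.91, 6.83 and 5.87 for the negative control arrays, and 6.43, 5.95 and 6.75 for the mimic arrays. POMP was highest on mock 2 and negative control 2 in their groups, and lowest on mimic 2, the mimic array with the least of that class. The order was not kept throughout: mimic 3 had the most of that class in its group, while POMP was highest on mimic 1 and ADRM1 lowest on mimic 3. ADRM1 was highest of its group on negative control 2 but lowest of its group on mock 2. The part of this class of RNA in the values of POMP and ADRM1 was not tested. With both mock 2 and negative control 2 left out, a setting chosen after seeing the data, neither gene was called in any comparison. ADRM1 was then at 0.28 against the negative control and 0.14 against mock, and POMP at -0.03 and -0.20.

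Genes that work with ADRM1 and POMP were taken from 5 lists of the ubiquitin and proteasome pathway, written from general knowledge, of which 49 of 76 genes were measured. Against the negative control 2 of the 49 rose and 0 fell (4.08% called, against 3.18% of all genes), against mock 2 rose and 2 fell (8.16%, against 3.9%), and in the negative control against mock 0 passed in limma (5 at an unadjusted p under 0.05). SEM1, a small subunit of the regulatory particle that the symbol rule does not cover, did not pass, at -0.14 ± 0.087 against either control, n = 3 per group. UCHL5, the enzyme that ADRM1 anchors, was at -0.04 and 0.06 in the mimic against the negative control and against mock, and USP14, the other deubiquitinating enzyme of the regulatory particle, at 0.02 and -0.01.

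Of 8 measured genes of proteasome transcription, 1 rose against the negative control and 1 fell against mock, and 7 did not pass in each case. NFE2L1, the activator of proteasome genes, read 6.94, 6.93 and 7.47 on mock, 6.93, 7.06 and 7.13 on negative control and 6.67, 6.09 and 6.29 on mimic arrays. All mimic arrays lay below all others. Arrays did not overlap, in either direction, for 18.6% of all genes against the negative control and 20.2% against mock. It fell by 0.76 on the log2 scale against mock (SE 0.18, 1.69-fold lower, adjusted p = 0.048 by limma) and was at -0.69 ± 0.18 against the negative control (adjusted p = 0.076). The call against mock was lost without any 1 of the arrays except mimic 1 (adjusted p up to 0.14), with the replicate block (adjusted p = 0.070), on the 6 arrays compared (0.11) and with centring on array medians (0.059). Against the negative control it passed with a second quantile normalization (adjusted p = 0.036), among genes at or above median signal (0.038) and without mock 3 (0.044). ADRM1, whose promoter held the core of the element that NFE2L1 binds, and POMP, whose window did not, differed by at most 0.26 in size in the same comparisons. Whether NFE2L1 acts on either gene in these cells was not tested. NFE2L3, a related factor, rose against the negative control by 0.87 ± 0.15 (adjusted p = 0.014, and 0.059 without mimic 1 or mimic 2) and was at 0.58 against mock (adjusted p = 0.060), where it passed in 4 of 19 alternatives (lowest adjusted p = 0.033). NFE2L2, the factor of the oxidative stress response, was at -0.07 and -0.04.

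In the other lists single genes passed. Of 12 proteasome-bound enzymes and shuttles 1 fell against mock: RAD23B, which carries tagged proteins to the proteasome (-0.42 ± 0.087, adjusted p = 0.032 by limma, n = 3 per group, up to 0.099 with arrays left out 1 at a time, 0.074 with the replicate block and 0.052 on the 6 arrays compared). The negative control stood between the other groups for RAD23B, at -0.21 from mock (adjusted p = 0.42) and with the mimic at -0.21 from it (adjusted p = 0.27). The RAD23B arrays did not overlap in either case, as held for 12% and 18.6% of all genes in these comparisons. Of 8 ubiquitin and E1 genes 1 rose in each mimic comparison. UBA6, an enzyme that activates ubiquitin, rose against the negative control (0.59 ± 0.097, adjusted p = 0.013, up to 0.056 without negative control 3, mimic 1 or mimic 3). Relative to mock, UBA6 stood at 0.24 in the mimic (adjusted p = 0.22) and at -0.35 in the negative control (adjusted p = 0.19). Its negative control arrays lay below all mock arrays, in a comparison where 12% of all genes did not overlap. ATG7, which activates ubiquitin-like proteins of autophagy, rose against mock (0.70 ± 0.14, adjusted p = 0.027, up to 0.088 with arrays left out and 0.071 on the 6 arrays compared) and was at 0.54 against the negative control (adjusted p = 0.072, passing in 4 of 19 alternatives). Of 15 genes of the VCP unfoldase and its cofactors, which extract tagged proteins for the proteasome, 1 rose against mock, the deubiquitinating enzyme YOD1 (0.48 ± 0.099, adjusted p = 0.033, up to 0.11 with arrays left out, 0.056 with the replicate block and 0.078 on the 6 arrays compared), at 0.40 against the negative control (adjusted p = 0.065, passing in 1 of 18 alternatives). Of the 6 measured genes listed under interferon-induced antigen processing, a pathway that uses the proteasome's peptides, 0 passed in any comparison in limma (2, 1 and 0 at an unadjusted p under 0.05 against the negative control, against mock, and in the negative control against mock).

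**Figure D3:**
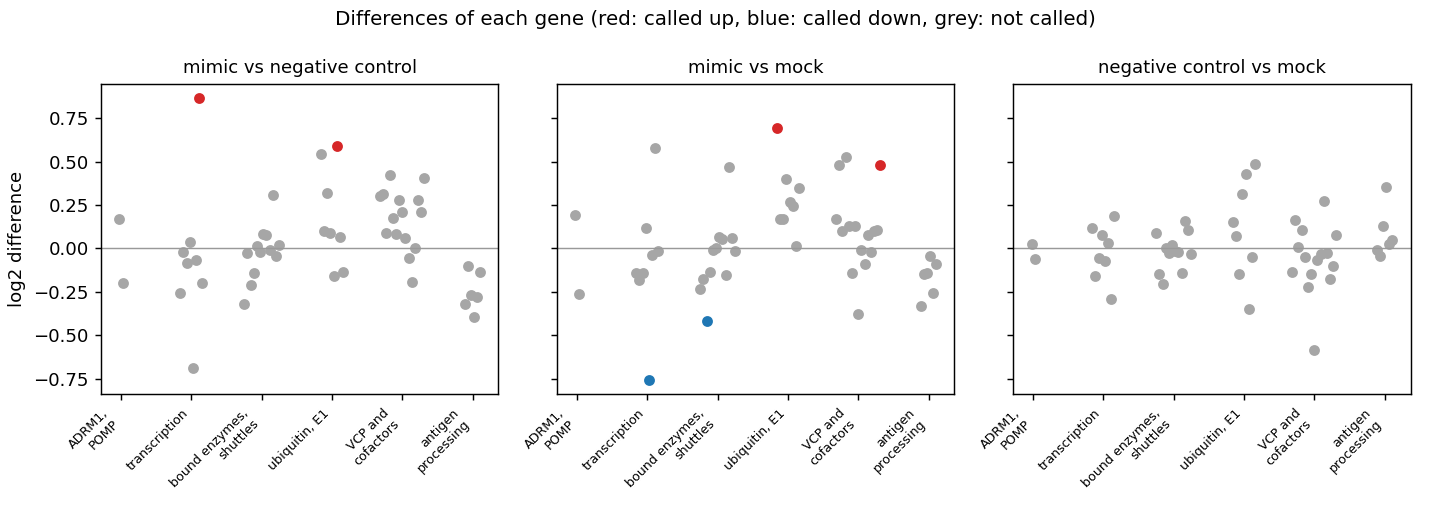
Log2 difference (vertical axis) of ADRM1 and POMP and of each measured gene of 5 pathway lists in the 3 comparisons (panels); each point is 1 gene, red where it was called up, blue where called down and grey where not called. ADRM1 and POMP lie within the spread of the pathway genes, which runs from -0.69 to 0.87 against the negative control.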

How the data were processed

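Total RNA, 1 ug per sample, was read on Affymetrix Human Gene 2.0 ST arrays. The deposited values of the 9 arrays are log2 signals that the authors made with RMA, per the submitters' processing notes; neither its version nor the array definition is given in the sources used here. No values were missing. Of 53617 features, 16098 had exactly 1 symbol in the platform table, all matched to RefSeq by gene ID; the other 37519 were not counted apart. Where a gene had several features (779 genes) the brightest over all arrays was used. The tests used limma 3.58.1 under R 4.3.3 (lmFit, eBayes, 1 mean per group, all 9 arrays, 9.60 total degrees of freedom), with two-sided p-values adjusted by Benjamini-Hochberg over the 14884 genes of each comparison. The genes, lists and alternatives were chosen with earlier results of these data known. Every array's values were to be given for ADRM1 and POMP, and NFE2L1 and, from each pathway list, up to 4 called genes with the largest change were to be named; SEM1, UCHL5, USP14 and NFE2L2 were added after their values were seen. Deviations from group means of same-numbered mock and negative control arrays correlated at r = 0.15, 0.23 and 0.15. For differently numbered mock and negative control arrays r ran from -0.16 to 0.022. Mimic arrays gave r from -0.29 to -0.054 with same-numbered arrays, but from -0.18 to 0.24 with differently numbered ones. The deviations of a group's 3 arrays sum to 0, so these r are not independent. Whether the numbers pair samples is not settled by these values, and the labels do not say. The number of arrays limits the precision.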

Additional observations from a re-analysis of the deposited data

How the results depend on the processing

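ADRM1 and POMP were called in 0 of 116 values over all alternatives and comparisons, with adjusted p (limma) from 0.22 to 1. The difference of ADRM1 between negative control and mock, 0.02, turned to -0.019 with array weights and -0.14 with both mock 2 and negative control 2 left out, and lay between -0.088 and 0.16 with single arrays left out; that of POMP lay between -0.23 and 0.059 and that of NFE2L1 between -0.16 and 0.11. The cause was not tested. Genes called numbered 473 for mimic against negative control, 580 for mimic against mock and 96 for negative control against mock. On the 6 arrays compared alone they numbered 251, 321 and 18, with the replicate block 292, 346 and 61, and at an adjusted p under 0.01 140, 144 and 20. Against mock they were 904 with array weights and 362 with at least 1.5-fold. For negative control against mock they were 150 when genes below the median signal were left out, 28 without mock 2 and negative control 2, and 0 with the block on 6 arrays (1735 at an unadjusted p under 0.05); the last 2 settings were chosen after seeing the data. Leaving out single arrays gave 199 to 431, 188 to 650 and 21 to 112. Among named calls, the replicate block ended those of NFE2L1 (adjusted p = 0.070), RAD23B (0.074) and YOD1 (0.056) against mock and no other, while NFE2L3 passed against mock with it (0.034). The fit on the 6 arrays compared ended all 4 against mock, NFE2L1 (0.11), RAD23B (0.052), ATG7 (0.071) and YOD1 (0.078), and centring on array medians ended that of NFE2L1 (0.059). Without mock 2 and negative control 2, of the 6 named calls that of UBA6 was kept and those of NFE2L1 (0.086), NFE2L3 (0.054), RAD23B (0.064), ATG7 (0.052) and YOD1 (0.099) were lost. The low number of arrays limits what could be called.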

Other observations

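Some deposited values were exactly equal between arrays, to all 5 decimals. ADRM1 had the same value, 6.0076, on mock 3 and negative control 3, NFE2L1 the same value, 6.92562, on mock 2 and negative control 1, and POMP no value in common. UBE3A, a ubiquitin ligase that binds the proteasome and was singled out after its values were seen, read 6.65669 on 8 of the 9 arrays. Of the 14884 genes, 8384 (56.3%) had at least 2 arrays at 1 value and 1063 (7.14%) at least 5.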
